A study of Mus musculus with 6 samples.

Results

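The chains of the cartilage fibril collagens II, IX, XI and XXVII are encoded by 7 genes, *Col2a1*, *Col9a1*, *Col9a2*, *Col9a3*, *Col11a1*, *Col11a2* and *Col27a1*, and their transcripts were followed through digits-in-a-dish (DID) cultures of mouse limb mesenchyme. The genes were picked by symbol and are 7 of the 32286 genes counted in each of 6 libraries. The cultures were started from pooled distal forelimb mesenchyme of wildtype CD-1 embryos at embryonic day 11.5, dissociated with enzymes, plated at high density and grown in medium with fetal bovine serum, and the sources used here name no treatment. Single-cell RNA-seq with a 3' unique molecular identifier (UMI) kit was made on Day 2, Day 7 and Day 10 after seeding, each day from 2 independent cultures called replicates A and B. The 3 groups differ in time in culture, and each culture mixes the cell types of the pooled limb tissue, muscle and blood cells included.

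Collagen II is a homotrimer of the *Col2a1* product and makes up most of the cartilage fibril. Collagen XI, assembled from the products of *Col11a1*, *Col11a2* and *Col2a1*, sits in the fibril core and limits how thick the fibril grows, while collagen IX, a heterotrimer of the *Col9a1*, *Col9a2* and *Col9a3* products, is cross-linked to the fibril surface and links it to other matrix proteins. Collagen XXVII is a fibrillar homotrimer of the *Col27a1* product, found in the cartilage models of the skeleton. In the limb these genes are turned on as mesenchyme condenses into cartilage, under SOX9, SOX5 and SOX6.

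The 7 genes lie on 6 chromosomes (GRCm38, GENCODE M21). *Col2a1* (ENSMUSG00000022483) runs on the minus strand of chromosome 15 from 97975602 to 98004695, and the other 6 are on the plus strand. *Col9a1* (ENSMUSG00000026147) lies on chromosome 1 from 24177610 to 24252684, *Col9a2* (ENSMUSG00000028626) on chromosome 4 from 121039385 to 121055322 and *Col9a3* (ENSMUSG00000027570) on chromosome 2 from 180597790 to 180622189. *Col11a1* (ENSMUSG00000027966) lies on chromosome 3 from 114030540 to 114220718, *Col11a2* (ENSMUSG00000024330) on chromosome 17 from 34039437 to 34066685 and *Col27a1* (ENSMUSG00000045672) on chromosome 4 from 63214004 to 63334991. Their longest coding transcripts have 54, 38, 32, 33, 67, 64 and 61 exons, in the order *Col2a1*, *Col9a1*, *Col9a2*, *Col9a3*, *Col11a1*, *Col11a2* and *Col27a1*. *Col9a3* overlaps *Tcfl5* on the opposite strand, which had 283 to 943 UMIs per library against 32442 to 371249 for *Col9a3*, and *Col27a1* holds *Mir455* on its own strand.

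*Col9a1* has a pair of coding transcripts, of 38 and 32 exons, that start at 24177610 and 24195187 and share their 3' end at 24252684, so the UMI counts below add both. *Col2a1* likewise has coding transcripts of 53 and 54 exons with a common 3' end at 97975602. RefSeq gave 6 promoter windows for 5 of the 7 genes, each from 250 bases before to 50 bases after a start. The *Col9a1* pair is shown because the counts cannot tell these starts apart, and *Col11a2* because its level changed by the largest fold (GRCm38.p6, plus strand, 5′ to 3′). Capitals mark a SOX-type word on either strand. The words searched were ACAAAG, whose reverse complement is CTTTGT, then a second form that differs in its next-to-last letter, ACAATG, whose reverse complement is CATTGT. The same forms starting with T in place of A were searched as well, TCAAAG with the reverse complement CTTTGA, and as the last form TCAATG with the reverse complement CATTGA.
*Col9a1* upstream start, chr1:24177360-24177659: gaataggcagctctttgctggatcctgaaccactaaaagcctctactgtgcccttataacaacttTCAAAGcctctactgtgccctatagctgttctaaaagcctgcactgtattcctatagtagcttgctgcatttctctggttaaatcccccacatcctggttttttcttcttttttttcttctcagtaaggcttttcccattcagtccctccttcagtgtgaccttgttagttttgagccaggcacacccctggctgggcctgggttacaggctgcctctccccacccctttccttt
*Col9a1* downstream start, chr1:24194953-24195252: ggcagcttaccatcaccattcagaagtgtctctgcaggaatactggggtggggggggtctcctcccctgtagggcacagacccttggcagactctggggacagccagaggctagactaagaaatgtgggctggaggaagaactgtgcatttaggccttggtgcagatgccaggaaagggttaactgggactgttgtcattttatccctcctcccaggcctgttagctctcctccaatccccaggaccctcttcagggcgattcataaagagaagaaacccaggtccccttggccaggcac
*Col11a2*, chr17:34038888-34039187: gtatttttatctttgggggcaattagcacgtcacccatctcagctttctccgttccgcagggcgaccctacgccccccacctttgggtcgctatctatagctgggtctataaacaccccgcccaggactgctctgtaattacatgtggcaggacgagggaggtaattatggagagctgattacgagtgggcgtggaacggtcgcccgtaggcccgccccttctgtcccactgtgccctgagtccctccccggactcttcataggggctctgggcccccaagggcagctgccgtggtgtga
A SOX-type word was found in 2 of the 6 windows, TCAAAG at -185 from the upstream *Col9a1* start and CTTTGA at -178 from the *Col9a2* start. The windows of the other *Col9a1* start, *Col11a1*, *Col11a2* and *Col27a1* held none. Of all 32851 RefSeq promoter windows of this length, 14444 (44.0%) held such a word.

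The libraries held 9448 to 16486 cells after filtering and 178022112 to 260245417 UMIs in those cells. Day 2 replicate B was the shallowest, with a median of 3871 UMIs per cell and 41.4% of its cells under 3000 UMIs. In Day 2 replicate A these values were 18587 and 6.84%. The Day 7 libraries had medians of 8062 and 9337, with 30.8% and 23.5% of cells under 3000 UMIs. Those of Day 10 had medians of 24197 and 22128, with 7.92% and 10.9%. Comparisons per cell between Day 7 and Day 10 thus set shallower cells against deeper ones. Any pair of libraries shared 24 to 67 cell barcodes, at most 0.543% of the smaller library. All 12 chondrocyte markers were detected in every library, and their summed level was 1041 and 1146 counts per 1e6 UMIs (CPM) at Day 2, then 7235 and 6899 at Day 7, then 4244 and 3977 at Day 10. Endothelial markers summed to 1.69 CPM or less, and 5 of the 6 erythroid globin genes were at 0 in each Day 7 and Day 10 library.

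All 7 genes rose from Day 2 to Day 7 and fell from Day 7 to Day 10, ending above their Day 2 level. *Col2a1* rose 15.4-fold and *Col11a2* 38.1-fold to Day 7, while *Col9a1* rose 3.71-fold. By Day 10 the levels stood at 49.1% (*Col9a3*) to 66.3% (*Col27a1*) of those at Day 7. The UMIs of all cells of a library were summed and scaled to CPM with TMM factors, so fewer cells of a type and less RNA per cell cannot be told apart in these sums.

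*Col2a1* was at 548 and 607 CPM in Day 2 replicates A and B, at 9281 and 8526 CPM at Day 7, and at 5961 and 5344 CPM at Day 10. Its log2 fold change was 3.95 (SE 0.10, adjusted p = 1.1e-08, edgeR) to Day 7 and -0.66 (SE 0.09, adjusted p = 6.1e-04) from Day 7 to Day 10. Among all genes of a library by UMI count, it ranked 224 and 198 at Day 2, then 3 and 4 at Day 7, then 14 and 17 at Day 10.

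The collagen XI genes, whose products limit fibril thickness, lay far apart in level. *Col11a1* was at 283 and 348 CPM at Day 2, then 4521 and 4162 CPM at Day 7, then 2340 and 2188 CPM at Day 10. *Col11a2* went from 19.9 and 23.9 CPM to 879 and 787 CPM and then 506 and 449 CPM. The log2 fold changes to Day 7 were 3.78 (SE 0.12, adjusted p = 2.3e-08) for *Col11a1* and 5.25 (SE 0.12, adjusted p = 6.0e-09) for *Col11a2*. From Day 7 to Day 10 they were -0.94 (SE 0.10, adjusted p = 1.9e-04) and -0.80 (SE 0.10, adjusted p = 3.4e-04). In neither gene did the replicates of any day overlap those of another.

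The genes of collagen IX, the fibril surface collagen, started from unequal levels and rose unequally. *Col9a1* had 384 and 404 CPM at Day 2, then 1520 and 1403 CPM at Day 7, then 831 and 744 CPM at Day 10. *Col9a2* had 111 and 113 CPM, then 942 and 909 CPM, then 586 and 554 CPM. *Col9a3* had 161 and 159 CPM, then 1899 and 1839 CPM, then 957 and 878 CPM. *Col9a1* thus had the highest Day 2 counts of the 3 genes and the smallest rise of all 7. Its log2 fold change to Day 7 was 1.89 (SE 0.08, adjusted p = 1.4e-07), against 3.05 (SE 0.06, adjusted p = 4.3e-09) for *Col9a2* and 3.54 (SE 0.07, adjusted p = 4.1e-09) for *Col9a3*. From Day 7 to Day 10, *Col9a3* had the lowest value of the 7 genes, -1.03 (SE 0.07, adjusted p = 1.9e-05), with *Col9a1* at -0.89 and *Col9a2* at -0.70.

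*Col27a1*, the collagen XXVII gene, was at 51.2 and 54.1 CPM at Day 2, then 356 and 352 CPM at Day 7, then 235 and 233 CPM at Day 10. It rose by 2.75 on the log2 scale to Day 7 (SE 0.06, adjusted p = 3.9e-09) and then changed by -0.59 (SE 0.05, adjusted p = 6.7e-05), the smallest fall of the 7. In these sums the order of the days was Day 2, Day 10, Day 7 for every gene, with no overlap between replicates of neighbouring days. The sums weight a cell by its depth. With every cell thinned to 1000 UMIs, *Col27a1* stood at 378 and 393 per 1e6 UMIs at Day 7 and at 332 and 401 at Day 10, which overlap, and its log2 change after Day 7 was -0.07 in place of -0.59, with no test. At 3000 UMIs, which leaves out the shallower cells, its mean count per cell was 1.22 and 1.28 at Day 7 and 0.988 and 1.12 at Day 10, which do not overlap. At 1000 UMIs the rise of *Col9a3* to Day 7 was 6.84-fold in place of 11.7-fold, that of *Col2a1* 11.7-fold in place of 15.4-fold and that of *Col11a2* 27.6-fold in place of 38.1-fold, and the other 6 genes kept a fall after Day 7, of -0.33 (*Col9a2*) to -0.68 (*Col9a1*).

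Against the background of all 18987 genes tested, 7 of 7 were called higher at Day 7 than at Day 2, where 35.7% of all genes were higher and 34.6% lower at an adjusted p under 0.05. At Day 10 against Day 7, 7 of 7 were called lower, where 25.9% were lower and 26.3% higher. At Day 10 against Day 2, 7 of 7 were called higher, where 39% were higher and 38.2% lower, and the log2 fold changes ran from 0.999 for *Col9a1* to 4.45 for *Col11a2*. The median log2 fold change of all genes was 0.01, -0.02 and 0.00 in these comparisons. The days share libraries, so the 3 comparisons are not independent of each other, and with 2 libraries a day an exact permutation test of a single value cannot go below 2 in 6. The 2 cultures of a day are separate, but all came from pooled embryos. Without Day 2 replicate B, the shallowest library, the log2 fold changes to Day 7 ran from 1.93 for *Col9a1* to 5.39 for *Col11a2*, with 4.02 for *Col2a1*.

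**Figure D1:**
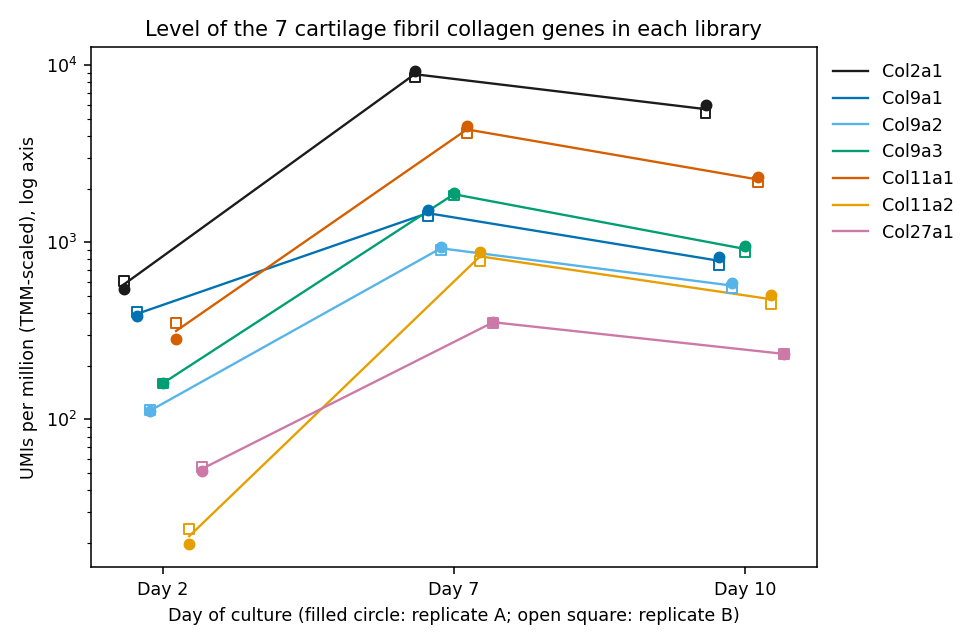
Level of the 7 genes in each library, in TMM-scaled CPM on a log axis, against the day of culture. Filled circles are replicate A, open squares replicate B and lines join the means of the 2 replicates. Every gene was lowest at Day 2 and highest at Day 7, *Col11a2* climbed from 19.9 and 23.9 to 879 and 787, and the lines of *Col9a1* and *Col9a3* cross between Day 2 and Day 7.

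The proportions among the chains changed as the cultures matured, which was measured as the UMIs of a chain per 100 UMIs of another within the same library. Such a ratio needs no scaling between libraries. A 3' UMI counts a transcript once whatever its length, but capture can differ between genes, so a ratio is compared between days and is not a stoichiometry of chains. Per 100 UMIs of *Col2a1* there were 68.3 ± 2.4 (SD, n = 2) of *Col9a1* at Day 2, then 16.4 ± 0.058 at Day 7, then 13.9 ± 0.019 at Day 10. The *Col9a1* counts thus came closer to those of *Col2a1* at Day 2 than on either later day.

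*Col11a2* moved the opposite way, from 3.78 ± 0.22 per 100 *Col2a1* UMIs at Day 2 to 9.35 ± 0.17 at Day 7 and 8.44 ± 0.058 at Day 10. *Col11a1* went from 54.5 ± 4.0 to 48.8 ± 0.072 and 40.1 ± 1.2, and *Col27a1* from 9.13 ± 0.31 to 3.98 ± 0.21 and 4.16 ± 0.30. *Col9a2* went from 19.4 ± 1.2 to 10.4 ± 0.36 and 10.1 ± 0.38, and *Col9a3* from 27.8 ± 2.2 to 21.0 ± 0.78 and 16.2 ± 0.27. Added together, the collagen IX genes went from 116 ± 5.8 per 100 *Col2a1* UMIs at Day 2 to 47.8 ± 1.2 and 40.3 ± 0.63, while the collagen XI genes were at 58.3 ± 4.2, 58.1 ± 0.096 and 48.5 ± 1.1 on the 3 days.

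The changes were tested in the edgeR fit with the UMIs of the reference chain in place of the library size, so the noise of that chain is common to every gene of the fit, and adjusted p-values with the spread of the ratio estimated on its own are given beside them. From Day 2 to Day 7, *Col9a1* changed against *Col2a1* by -2.06 on the log2 scale (SE 0.16, adjusted p = 2.4e-38), *Col27a1* by -1.198 (SE 0.14, adjusted p = 5.5e-17), *Col9a2* by -0.90 (SE 0.15, adjusted p = 1.3e-09) and *Col9a3* by -0.40 (SE 0.15, adjusted p = 0.0074). So 4 of the 6 chains were called lower against *Col2a1*, but so were 97.7% of all genes. *Col11a2* was called higher, by 1.31 (SE 0.15, adjusted p = 2.8e-19), as were 0.632% of all genes. The change of *Col11a1*, -0.16 (SE 0.15, adjusted p = 0.297), was not called. With the spread of each ratio estimated on its own, these adjusted p-values were 2.2e-04, 8.9e-04, 0.0012, 0.013, 3.0e-04 and 0.093 in the same order, and the calls were the same. Without Day 2 replicate B the changes against *Col2a1* were -2.09 for *Col9a1*, 1.37 for *Col11a2* and -0.085 for *Col11a1*, with the same calls. The call for *Col9a3* was lost without Day 2 replicate A (adjusted p = 0.055) and without Day 7 replicate A (adjusted p = 0.102).

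Between Day 7 and Day 10 the ratios to *Col2a1* moved little. Only *Col9a3* was called, at -0.37 (SE 0.15, adjusted p = 0.019, or 0.033 with own spread), or 1 of 6 chains where 5.48% of all genes were called lower, and the call was lost on leaving out any library of those days (adjusted p of 0.073 to 0.165). *Col9a1* changed by -0.24 (adjusted p = 0.148) and *Col11a1* by -0.28 (adjusted p = 0.087), values that passed with the spread of each ratio on its own (adjusted p = 0.023 and 0.043). *Col11a2* was at -0.15, *Col9a2* at -0.04 and *Col27a1* at 0.06. From Day 2 to Day 10, 5 of 6 chains were called lower against *Col2a1*, where 95.6% of all genes were, and *Col11a2* was called higher by 1.16, where 1.55% were. *Col11a1* was among the lower ones over that interval, at -0.44 (SE 0.15, adjusted p = 0.0042, or 0.0076 with own spread).

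Within collagen IX the balance of its chains turned over. Per 100 *Col9a1* UMIs, *Col9a2* rose from 28.4 ± 0.78 at Day 2 to 63.4 ± 2.0 at Day 7 and 72.5 ± 2.8 at Day 10, and *Col9a3* from 40.7 ± 1.8 to 128 ± 4.3 and 117 ± 2.1. *Col9a1* held 58.5% and 59.8% of the collagen IX UMIs at Day 2, but 34.9% and 33.8% at Day 7 and 35.002% and 34.2% at Day 10. *Col9a3* held 24.5% and 23.6%, then 43.5% and 44.3%, then 40.3% and 40.4%. In these sums *Col9a3* took the place of *Col9a1* as the most counted chain, but in cells thinned to 1000 UMIs the order differed between replicates. There *Col9a1* had 1535 and 1221 UMIs per 1e6 and *Col9a3* 1408 and 1238 at Day 7, and 910 and 814 against 942 and 813 at Day 10. At Day 2 the thinned values were 539 and 442 against 219 and 168, so the chains still drew closer. At 3000 UMIs *Col9a3* was above *Col9a1* in all 4 of these later libraries, with a mean of 4.98 and 4.41 against 4.76 and 3.97 UMIs per cell at Day 7 and 2.84 and 2.68 against 2.77 and 2.50 at Day 10, so the order was not the same in both settings, which differ in thinning depth and in the cells kept. The log2 change against *Col9a1* to Day 7 was 1.16 for *Col9a2* (SE 0.13, adjusted p = 5.8e-10) and 1.65 for *Col9a3* (SE 0.13, adjusted p = 4.5e-13), so 2 of 2 were called higher where 3.73% of all genes were. With each ratio's own spread the adjusted p-values were 8.9e-04 and 8.2e-04. At Day 10 against Day 2, 2 of 2 were again called higher, at 1.35 and 1.52, where 11.8% were (adjusted p with own spread of 0.0021 for both). At Day 10 against Day 7 the values were 0.19 and -0.13, and 0 of 2 were called where 81.1% of all genes were called in one direction or the other, while with each ratio's own spread that of *Col9a2* was called (adjusted p = 0.038) and that of *Col9a3* was not (adjusted p = 0.089).

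Within collagen XI, *Col11a2* rose from 6.94 ± 0.10 to 19.2 ± 0.37 and 21.1 ± 0.78 per 100 *Col11a1* UMIs. The log2 change was 1.47 to Day 7 (SE 0.19, adjusted p = 2.3e-14) and 1.60 from Day 2 to Day 10 (SE 0.19, adjusted p = 1.1e-16), both called higher, where 0.674% and 2.16% of all genes were. With the ratio's own spread these adjusted p-values were 5.3e-04 and 9.5e-04. From Day 7 to Day 10 it was 0.13 (SE 0.19, adjusted p = 0.507, or 0.051 with own spread) and was not called, where 80.5% of all genes were called in one direction or the other.

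**Figure D2:**
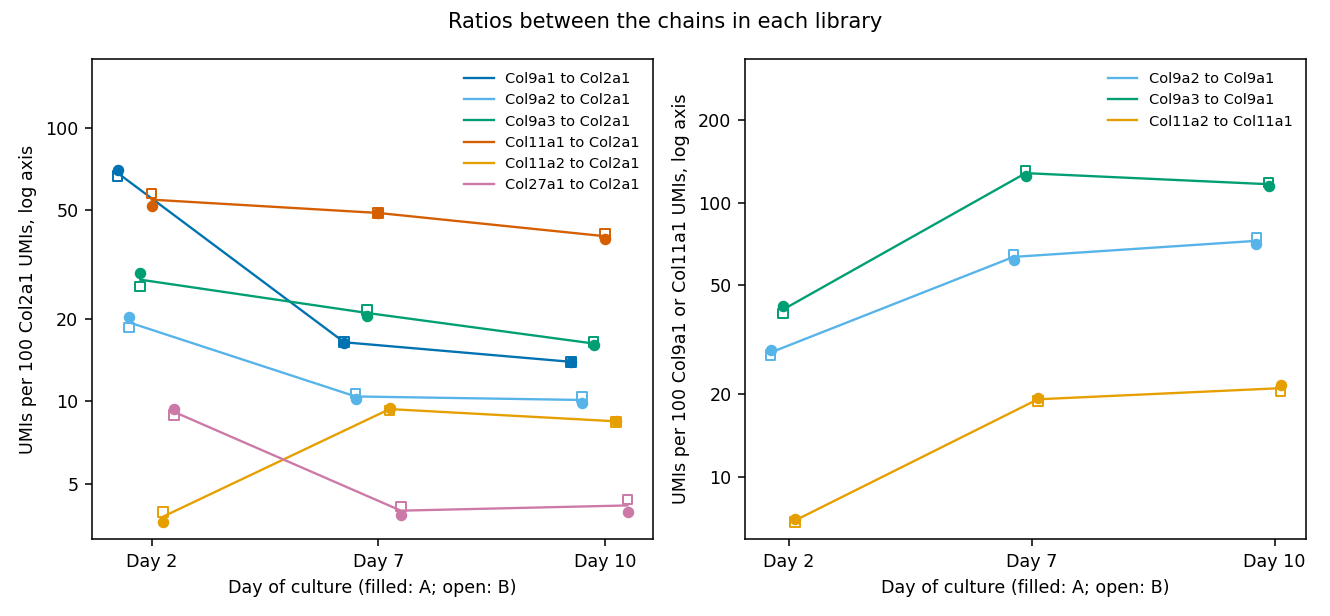
UMIs of each chain per 100 UMIs of *Col2a1* (left), and of *Col9a1* or *Col11a1* (right), in each library, on log axes against the day of culture. Filled circles are replicate A, open squares replicate B and lines join the day means. *Col9a1* drops from 68.3 to 16.4 per 100 *Col2a1* while *Col11a2* climbs from 3.78 to 9.35, and *Col9a3* passes 100 per 100 *Col9a1* at Day 7.

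The share of cells with a UMI of each gene was also counted. To compare libraries of unlike depth, each cell was thinned to 1000 UMIs. *Col2a1* had a UMI in 37.9% and 36.4% of thinned cells at Day 2, then 86.4% and 81.8% at Day 7, then 59.5% and 60.1% at Day 10. Without thinning, 83.8% of the cells of Day 2 replicate A had one. *Col11a1* went from 26.2% and 29.1% to 88.0% and 82.9% and then 68.7% and 67.8%. *Col11a2* was the rarest at Day 2, in 2.86% and 2.58% of thinned cells, and was in 46.3% and 38.6% at Day 7 and 26.7% and 25.8% at Day 10.

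*Col9a1* had a UMI in 34.1% and 31.1% of thinned cells at Day 2, then 61.6% and 52.8% at Day 7, then 36.5% and 35.5% at Day 10, so its shares at Day 10 lay closer to those of Day 2 than to those of Day 7. At 3000 UMIs its shares were 58.0% and 57.9%, then 76.1% and 71.4%, then 54.1% and 52.1%. The order of Day 2 and Day 10 thus changed with depth, and none is read for *Col9a1*. *Col9a2* went from 13.2% and 11.04% to 45.9% and 41.5% and then 30.05% and 29.3%. *Col9a3* went from 16.1% and 13.8% to 54.1% and 45.9% and then 32.7% and 29.2%. *Col27a1* was in 6.52% and 5.95%, then 27.4% and 27.1%, then 20.5% and 23.0%. Each of the 7 genes was therefore in a larger share of cells at Day 7 than at either other day, in both replicates.

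Cells that should lack these genes also held their UMIs, and since no doublet caller was run, free RNA and doublets cannot be told apart as their source. Among cells with at least 3 of 6 immune markers, *Col2a1* was found after thinning in 12.5% of 24 cells and 15.8% of 19 cells at Day 2, in 51.5% of 33 and 41.5% of 53 at Day 7, and in 32.9% of 140 and 32.8% of 195 at Day 10. *Col11a1* was in 45.5% and 35.8% of them at Day 7 and 25% and 22.1% at Day 10. The immune cells were deep, with a median of 28431 and 23447 UMIs at Day 7.

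Among cells with at least 3 muscle markers the Day 7 shares of *Col2a1*, *Col11a1* and *Col11a2* were higher than in the immune-marker cells. *Col2a1* was in 8.45% of 355 and 24.7% of 660 of them at Day 2, but in 86.8% of 38 and 84.9% of 53 at Day 7, where the median muscle-marker cell had 13258 and 1387 UMIs. These Day 7 shares are not below the 86.4% and 81.8% of all cells, while those of the immune-marker cells, 51.5% and 41.5%, are. The share of cells with a *Col2a1* UMI at Day 7 is therefore not read as the share of cells that express the gene. How much of it is background was not tested. *Col11a1* in Day 7 replicate B was likewise not below, in 86.8% of muscle-marker cells against 82.9% of all, and is read the same way. In that replicate *Col9a1*, at 50.9% against 52.8%, and *Col27a1*, at 24.5% against 27.1%, were close between muscle-marker cells and all cells too. *Col9a1* in Day 2 replicate B was likewise level between 19 immune-marker cells (31.6%) and all cells (31.1%). *Col11a2* was in 23.7% and 34.0% of the muscle-marker cells at Day 7, below the 46.3% and 38.6% of all cells. The mean thinned *Col2a1* count separated the classes more, at 4.29 and 4.17 in the muscle-marker cells and 1.79 and 2.32 in the immune-marker cells against 9.08 and 7.18 in all cells. At Day 10 only 3 and 8 cells had the muscle markers.

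Summed, the 7 genes made up 0.175% and 0.195% of all UMIs at Day 2, then 1.82% and 1.67% at Day 7, then 1.07% and 0.989% at Day 10. The median cell gave them 0.127% and 0.130% of its UMIs at Day 2, then 1.51% and 0.959% at Day 7, then 0.361% and 0.360% at Day 10. The median cell thus fell more steeply after Day 7 than the sum did. The 90th percentile was 3.96% and 3.63% at Day 7 and 3.98% and 3.59% at Day 10, and the 99th percentile was 9.38% and 8.32%, then 9.97% and 9.49%, so the upper end of the cells differed less between those days than the median did. The single highest cell spent 20.6% of its UMIs on them, in Day 10 replicate A.

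The spread across cells depended on how it was measured. The variance of the thinned *Col2a1* count was 2.61 and 2.37 times its mean at Day 2, 10.9 and 11.2 times at Day 7 and 22.7 and 20.8 times at Day 10, while the mean itself was 0.770 and 0.623, then 9.08 and 7.18, then 6.77 and 5.97. The 10% of cells with most *Col2a1* held 53.1% and 52.7% of its thinned UMIs at Day 2, then 35.1% and 38.7% at Day 7, then 55.1% and 56.04% at Day 10. The share in the top cells was thus lowest at Day 7. *Col11a1* was spread more evenly than *Col2a1* at Day 10, with 44.7% and 44.1% in its top 10% of cells, and *Col11a2* less so, with 67.1% and 66.8%. A low mean count raises this share, and without thinning *Col11a2*, at 44.5% and 47.8%, was below *Col2a1*, at 47.6% and 54.2%, so no order of these 2 genes is read from it. At Day 2 *Col11a2* and *Col27a1* were in so few thinned cells that the top 10% held 100% of their UMIs, which sets no order.

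A full set of chains was rarely detected at first. Cells with a UMI of all 7 genes after thinning were 0.096% and 0.061% at Day 2, then 9.17% and 7.20% at Day 7, then 7.58% and 6.74% at Day 10. Cells with none were 36.6% and 30.8%, then 4.28% and 6.002%, then 17.1% and 17.5%. At Day 10 more cells thus had none of the genes than at Day 7, while the shares with all 7 overlapped between those days. At 3000 UMIs the shares with all 7 were 1.28% and 1.06% at Day 2, so they depend on depth. Those of the later days did not overlap there, at 38.4% and 33.03% at Day 7 and 22.9% and 21.1% at Day 10. Cells with at least 16 thinned *Col2a1* UMIs were 0.054% and 0.049% of cells at Day 2, then 17.0% and 14.1% at Day 7, then 16.3% and 13.8% at Day 10.

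**Figure D3:**
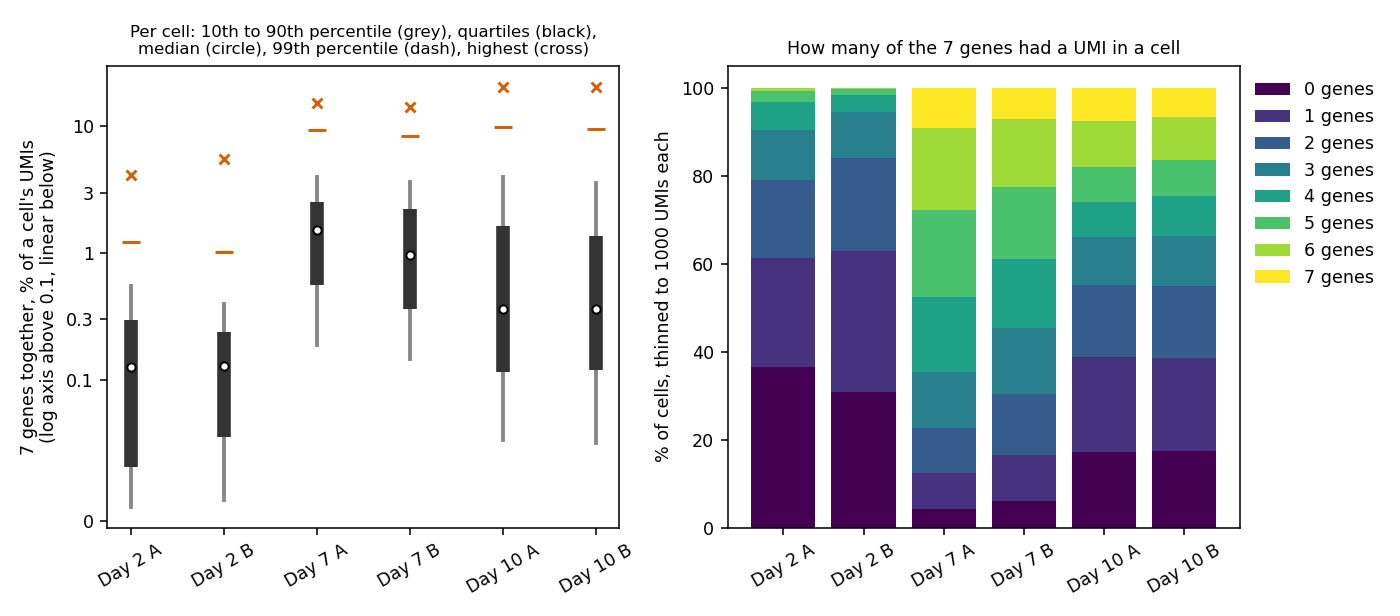
Spread of the 7 genes over single cells in each library. Left: their summed share of a cell's UMIs in percent, on an axis that is logarithmic above 0.1 and linear below, with the 10th to 90th percentile (grey), quartiles (black), median (circle), 99th percentile (dash) and highest cell (cross). Right: percent of cells, thinned to 1000 UMIs, with a UMI of 0 to 7 of the genes. From Day 7 to Day 10 the median falls from 1.51% and 0.959% to 0.361% and 0.360% while the 90th percentile stays between 3.59% and 3.98%.

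The other chains followed *Col2a1* across cells to different degrees. Over the thinned cells of a library, which share that library's depth and free RNA, the Spearman correlation of *Col11a1* with *Col2a1* was 0.33 and 0.18 at Day 2, then 0.71 and 0.70 at Day 7, then 0.69 and 0.66 at Day 10. For *Col27a1* it was 0.15 and 0.09, then 0.34 and 0.31, then 0.48 in both, on 9328 to 16486 cells per library. The weak values at Day 2 rest on counts of mostly 0 and 1. Among cells without a *Col2a1* UMI, *Col11a1* had one in 16.7% and 24.4% at Day 2, then 56.1% and 54.1% at Day 7, then 46.5% and 45.7% at Day 10. *Col11a2* had one in 0.569% and 1.39%, 7.17% and 6.62%, and 3.23% and 3.95% of those cells. These shares follow how often each gene was detected at all. Read from the other side, *Col2a1* was present in 60.5% and 46.8% of *Col11a1*-positive cells at Day 2, then 91.3% and 88.1% at Day 7, then 72.6% and 73.1% at Day 10. On the same days it was in 87.6% and 65.6%, 97.9% and 96.9%, and 95.1% and 93.9% of *Col11a2*-positive cells.

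The levels were then read by cell cluster. Clusters were rebuilt for each day after the 7 genes and 12 chondrocyte markers had been removed from the clustering features, and they were named only from marker lists, so a name ending in "-like" is a label and not an identity. Chondrocyte-like were Cluster 6 at Day 2, with 8 of 12 markers enriched, Clusters 1, 9 and 12 at Day 7 and Clusters 1, 9 and 14 at Day 10. Cluster 12 of Day 7 was led by cell division genes such as *Cenpa*, *Cdkn3* and *Ccnb2* and had 5 of the 12 markers enriched, of which *Snorc* was among its top 10 genes. Without it, the Day 7 clusters held 22.2% and 22.3% of the cells and 70.1% and 72.8% of the *Col2a1* UMIs, and *Col2a1* inside them was at 16008 and 15989 CPM. With Cluster 12 counted, the chondrocyte-like clusters held 12.2% and 5.49% of the cells at Day 2, then 22.9% and 23.1% at Day 7, then 18.99% and 16.5% at Day 10, and 10.9% and 11.5%, 39.1% and 37.1%, and 23.4% and 21.5% of the UMIs. Clusters left unnamed held 32.6% and 61.9% of the cells at Day 2, then 45.9% and 40.8% at Day 7, then 40.6% and 44.5% at Day 10. Among them was Cluster 0 of Day 7, with 25.9% and 16.5% of the cells and a median of 1191 and 1214 UMIs. With 2 times the cluster resolution the chondrocyte-like share of cells was 11.4% and 5.03% at Day 2, but 25.1% and 24.9% at Day 7 and 26.9% and 28.2% at Day 10, so the lower share of cells at Day 10 turned into a higher one and no direction is read from it.

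Inside the chondrocyte-like clusters *Col2a1* was at 2049 and 2244 CPM at Day 2, then 15864 and 15808 CPM at Day 7, then 19923 and 19365 CPM at Day 10. Outside them it was at 441 and 492, then 4104 and 3251, then 1226 and 1178 CPM. The Day 10 value inside was thus above that of Day 7, and the value outside well below it, while the clusters' share of UMIs was lower at Day 10. Between Day 7 and Day 10, *Col9a2* (1621 and 1657, then 1893 and 1918 CPM), *Col11a2* (1478 and 1434, then 1660 and 1588 CPM) and *Col27a1* (548 and 525, then 668 and 655 CPM) were likewise higher inside the clusters. *Col11a1* (7083 and 6940, then 5956 and 5944 CPM) and *Col9a3* (3475 and 3546, then 3219 and 3193 CPM) were lower, and *Col9a1* (2568 and 2538, then 2612 and 2495 CPM) had overlapping replicates. These are descriptions of clusters with no test.

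The share of a gene's UMIs that these clusters held was larger at Day 7 and Day 10 than at Day 2 for all 7 genes. Their share of all UMIs was larger too, at 10.9% and 11.5%, then 39.1% and 37.1%, then 23.4% and 21.5%. Larger clusters hold more of any gene, so no gain in concentration between days is read from these shares. For *Col2a1* it was 36.2% and 37.2% at Day 2, then 71.2% and 74.1% at Day 7, then 83.3% and 81.8% at Day 10. For *Col11a2* it was 46.4% and 46.0%, then 70.1% and 72.8%, then 81.8% and 79.9%. *Col11a1* was the least concentrated in them at Day 10, at 25.8% and 25.8%, then 65.3% and 66.7%, then 63.4% and 61.3%. Outside the clusters *Col11a1* stood at 85.8 and 87.1 per 100 *Col2a1* UMIs at Day 10, against 29.9 and 30.7 inside. The fall of *Col9a1* against *Col2a1* was present inside the clusters too, from 57.1 and 54.1 at Day 2 to 16.2 and 16.1 at Day 7, then 13.1 and 12.9 at Day 10. The rise of *Col11a2* against *Col2a1* was likewise there, from 4.65 and 4.87 to 9.32 and 9.07 and then 8.33 and 8.20. *Col11a1* differed, since its ratio to *Col2a1* inside the clusters rose from 36.9 and 39.7 at Day 2 to 44.6 and 43.9 at Day 7. It then fell to the Day 10 values above. The whole-culture ratio had a lower mean on each later day. Its change to Day 7, -0.16 on the log2 scale (edgeR adjusted p = 0.297), was not called, so no fall to Day 7 is read from it.

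The highest level was in Cluster 9 of Day 7 and Cluster 9 of Day 10, whose leading genes on both days included *Comp* and *Matn1*, which encode cartilage matrix proteins. *Col2a1* reached 37732 and 36287 CPM in the first and 44193 and 41436 CPM in the second, and the 7 genes together took 7.67% and 7.28%, and 8.08% and 7.72%, of the UMIs. The median cell of Cluster 9 had 7484.5 and 7205 UMIs at Day 7 and 8218 and 8001 at Day 10. In chondrocyte-like Cluster 1 it had 27366.5 and 26689 UMIs, then 36566 and 33365. The part of depth in these levels was not tested. At Day 10 the next in order was chondrocyte-like Cluster 1, with *Col2a1* at 19041 and 18787 CPM, and then Cluster 14, with 11559 and 10393 CPM. Its leading genes included *Matn3* and *Ihh*, the hedgehog ligand of the growth plate. *Ihh* was also among the top 10 genes of Cluster 1 of Day 10. Cluster 9 of Day 10 also met the hypertrophic chondrocyte list, through *Ihh*, *Pth1r* and *Alpl*.

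Other clusters differed in which chain led. The perichondrium-like clusters, Cluster 8 of Day 7 and Cluster 8 of Day 10, also met the dividing list through *Mki67*, *Top2a* and *Cenpf*, and their median cells had 7043 and 6475 and then 7308 and 6387 UMIs. The one of Day 7 had *Ncapg2*, *Kif15*, *Dtl* and *Hjurp* among its top 10 genes beside *Col1a1*. In the perichondrium-like clusters *Col11a1* was above *Col2a1*, at 4736 and 3746 against 4452 and 3636 CPM at Day 7 and at 3472 and 2903 against 2632 and 1973 CPM at Day 10. Muscle-marker cells of Day 7, thinned to 1000 UMIs, had a mean of 4.29 and 4.17 *Col2a1* UMIs and 1.71 and 2.79 *Col11a1* UMIs. The Day 7 *Col2a1* level of the perichondrium-like cluster thus lay near that of these cells, and its *Col11a1* level above. Contractile-like Cluster 0 of Day 10, led by *Actg2*, had *Col11a1* at 406 and 422 CPM and *Col2a1* at 286 and 296 CPM. For comparison, the immune-like cluster of Day 10 had *Col11a1* at 306 and 238 CPM and *Col2a1* at 725 and 459 CPM. The contractile-like *Col2a1* level lay below that of the immune-like cluster and the contractile-like *Col11a1* level above it. Immune-marker cells of Day 10, thinned to 1000 UMIs, had a mean of 0.614 and 0.503 *Col11a1* UMIs, above the contractile-like level. The contractile-like *Col11a1* level is thus not read as above that of immune cells. In the interdigital mesenchyme-like cluster of Day 2, *Col9a1*, at 206 and 184 CPM, was above *Col2a1*, at 125 and 123 CPM. In the joint interzone-like cluster of Day 2 both were higher, *Col9a1* at 723 and 766 CPM and *Col2a1* at 777 and 831 CPM. Muscle-marker cells of Day 2, thinned to 1000 UMIs, had a mean of 0.110 and 0.324 *Col2a1* UMIs and 0.087 and 0.282 *Col9a1* UMIs. The *Col2a1* level of the interdigital mesenchyme-like cluster is thus not read as above theirs. Its *Col9a1* level lay above theirs in replicate A but below in replicate B, and is not read as above theirs either.

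Unnamed clusters led by nuclear RNAs such as *Kcnq1ot1* and *Mir99ahg* had a chain mix of their own. In Cluster 4 of Day 7, *Col27a1* was at 833 and 964 CPM, above the 524 and 509 CPM of chondrocyte-like Cluster 1, while *Col9a3* was at 1050 and 592 CPM, below 3406 and 3499 CPM. Cluster 5 of Day 7 had *Col27a1* at 848 and 982 CPM and *Col9a3* at 1076 and 560.4 CPM. Clusters 2 and 3 of Day 10 showed the same for *Col27a1*, with 753 and 905 CPM and 712 and 1022 CPM against 615 and 607 CPM in Cluster 1. The median cell of these 4 clusters had 3706 to 4784 UMIs against 26689 to 36566 in Cluster 1 of the same days. Depth and nuclear RNA thus moved with these chain levels, and their part in them was not tested. In all 4 clusters the chondrocyte markers *Matn4* and *Wwp2* were enriched. With 2 times the cluster resolution, Clusters 7 and 8 of Day 10, with *Kcnq1ot1* and *Mir99ahg* among their top 10 genes, were named chondrocyte-like. Clusters 4 and 6 of Day 7 at that resolution, with the same RNAs there, stayed unnamed.

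**Figure D4:**
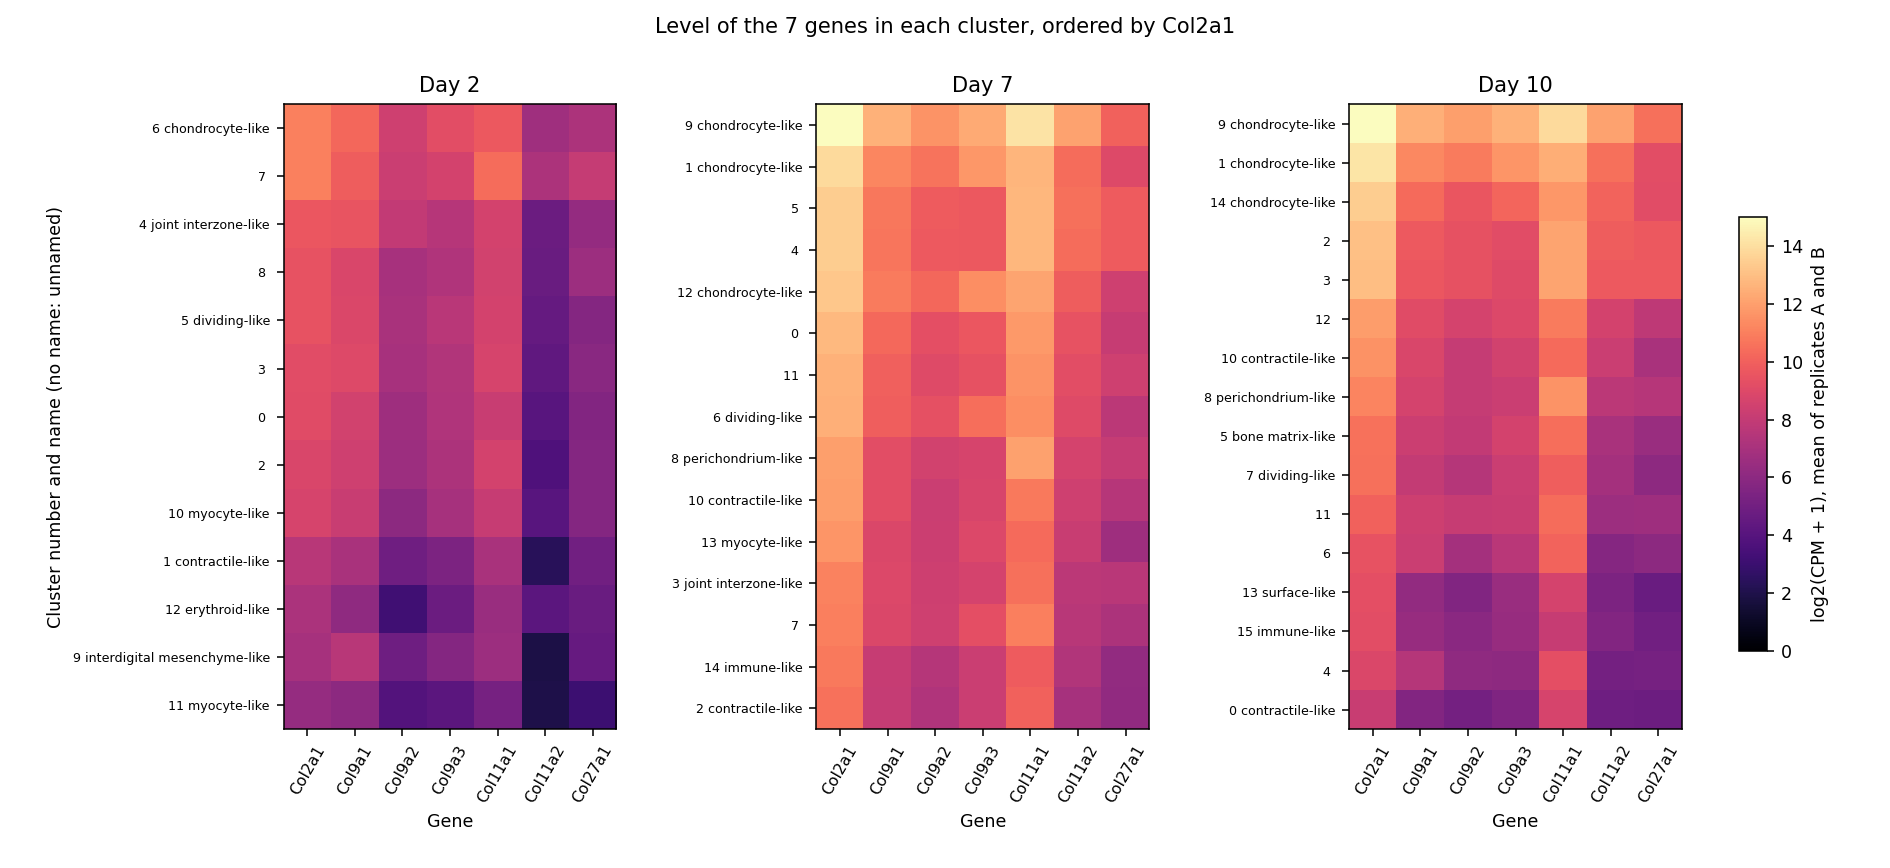
Level of the 7 genes in each rebuilt cluster at Day 2, Day 7 and Day 10, as log2(CPM + 1) averaged over replicates A and B (colour scale), with clusters ordered by *Col2a1* from top to bottom. Clusters with no name did not meet the naming rule. The chondrocyte-like clusters sit at or near the top of every panel, with *Col2a1* at 37732 and 36287 CPM in Cluster 9 of Day 7 and 44193 and 41436 CPM in Cluster 9 of Day 10, and *Col11a1* is above *Col2a1* in the perichondrium-like rows.

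Over the 83 sums of at least 50 cells of a cluster in a library, the 7 genes were correlated, which is a description of sums that share libraries and free RNA. The Pearson correlation of log2(CPM + 1) with *Col2a1* was 0.88 for *Col9a1*, 0.97 for *Col9a2*, 0.95 for *Col9a3*, 0.96 for *Col11a1*, 0.98 for *Col11a2* and 0.95 for *Col27a1*. The lowest pair was *Col9a1* with *Col11a2*, at 0.80. Within a day, *Col9a1* was at 0.96 with *Col2a1* at Day 2 (23 sums), 0.98 at Day 7 (28 sums) and 0.96 at Day 10 (32 sums), each above its value over all sums. *Col9a3* and *Col27a1* went the other way at Day 7, at 0.87 and 0.86, and were at 0.97 and 0.95 at Day 2 and both at 0.96 at Day 10.

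Among 8279 other genes with a mean of at least 10 CPM, those most like *Col2a1* over these sums were *Fgfr3*, the fibroblast growth factor receptor of cartilage, at 0.97, and *Acan*, which encodes aggrecan, *Slc26a2*, a sulfate transporter, *Susd5* and *Hapln1*, the link protein gene, all at 0.96. *Col11a2* was most like *Acan* (0.99), *Hapln1* (0.98), *Matn1*, *Trpv4* and *Slc26a2* (all 0.96). *Col11a1* was most like *Acan* (0.96), *Xylt1* and *Col16a1* (0.95), and then *Susd5* and *Trpv4*. *Col27a1* was most like *Xylt1*, a xylosyltransferase that starts glycosaminoglycan chains (0.96), *Fgfr3* (0.95), *Slc26a2*, *Slc35d1* and *Rab11fip4*. The best values for *Col9a1* were lower, with *Chst11*, a chondroitin sulfotransferase, *Fgfr3* and *Susd5* at 0.91 and *Chad* and *Rab11fip4* at 0.90.

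The genes that build, process and regulate these collagens were counted in 9 lists over the same fit, to be read against the shares of all genes called higher and lower, which were 35.7% and 34.6% at Day 7 against Day 2, 26.3% and 25.9% at Day 10 against Day 7, and 39% and 38.2% at Day 10 against Day 2. Of the 18 genes of intracellular modification and folding, 18 were higher at Day 7 than at Day 2 (median log2 fold change 1.41), 8 fell and 5 rose from Day 7 to Day 10, and 18 were higher at Day 10 than at Day 2 (median 1.31). *P3h1*, a prolyl 3-hydroxylase, was at 31.1 and 29.2 CPM, then 145 and 131 CPM, then 127 and 114 CPM, and had a log2 fold change of 1.99 to Day 10 (adjusted p = 4.7e-08). *Fkbp10*, a prolyl isomerase of the endoplasmic reticulum, had 1.92 and *P3h2* 1.83. Of the 8 secretion genes, 7 were higher at Day 7, and at Day 10 against Day 2 5 were higher and 2 lower (median 0.37). *Creb3l1*, a transcription factor of secretory cells, went from 9.502 and 8.75 CPM to 41.96 and 42.9 CPM and 90.4 and 80.9 CPM (log2 fold change 3.23), and the coat gene *Sec24d* had 1.31 and *Trappc2* 0.72. *Creb3l2* (-0.46) and *Klhl12* (-0.25) were the 2 lower ones.

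Of 8 procollagen cleavage genes, 7 were higher and 1 lower at Day 7, and 5 were higher and 1 lower at Day 10 against Day 2 (median 1.33), where 35.7% and 39% of all genes were higher in these comparisons. *Pcolce*, an enhancer of C-propeptide removal, had 2.56, *Pcolce2* 1.62 and *Bmp1*, the C-proteinase, 1.04, while *Tll1* had -0.37. All 5 cross-linking genes, the lysyl oxidases, were higher at Day 7 and at Day 10 than at Day 2 (medians 2.75 and 2.91), with *Lox* at 28.4 and 28.8 CPM, then 198 and 186 CPM, then 333 and 295 CPM. *Loxl4* had 5.11. Unlike the 7 collagen genes, *Lox* went on rising after Day 7, by 0.71 on the log2 scale (adjusted p = 9.5e-05). Perichondrium and bone matrix markers, whose sums are given below, also rose over that interval, and their part was not tested.

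The regulators were divided. Of 10 genes, 8 were higher and 1 lower at Day 7, 8 fell and 2 rose from Day 7 to Day 10, and 5 were higher and 5 lower at Day 10 than at Day 2. The last counts are near the 39% and 38.2% of all genes, while 35.7% of all genes were higher at Day 7 and 25.9% lower after it. *Sox9*, the transcription factor of cartilage fate, was at 326 and 355 CPM at Day 2, then 313 and 302 CPM at Day 7, then 200 and 182 CPM at Day 10. Its log2 fold change to Day 7 was -0.15 (SE 0.07, adjusted p = 0.080), which was not called, against 3.95 for *Col2a1*. *Sox5* (72.5 and 75.03, then 82.4 and 82.8, then 35.4 and 36.1 CPM) and *Sox6* (58.9 and 56.03, then 67.1 and 69.9, then 33.5 and 36.0 CPM) rose by 0.16 and 0.25 to Day 7. After Day 7 the 3 SOX genes were lower, by -0.69, -1.21 and -0.98 for *Sox9*, *Sox5* and *Sox6*. *Nkx3-2* and *Barx2*, both under 2 CPM in every library, were the other genes lower at Day 10 than at Day 2. *Zbtb20* (1.78), *Runx3* (1.203) and *Runx2* (1.13), the last 2 being runt factors of chondrocyte maturation, were higher.

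Of 14 fibril surface and matrix partners, 14 were higher at Day 7 (median 4.002), 9 fell and 3 rose after it, and 14 were higher at Day 10 than at Day 2 (median 3.83). *Acan*, *Matn1*, *Matn3*, *Matn4* and *Hapln1* of this list are also chondrocyte markers. The summed chondrocyte markers rose and fell over the same days, and their part in these changes was not tested. *Matn1* went from 6.75 and 8.91 CPM to 1725 and 1621 CPM and 898 and 833 CPM, a course like that of the 7 collagen genes with a larger rise. *Comp* went from 1.21 and 1.48 to 492 and 445 and on to 857 and 744 CPM, and *Epyc*, a small leucine-rich proteoglycan gene, had a log2 fold change of 5.70 at Day 10 against Day 2. Of 7 collagen receptors, 5 were higher and 1 lower at Day 7 and at Day 10 against Day 2, where 35.7% and 39% of all genes were higher. *Itga10*, the chondrocyte collagen II integrin chain, went from 0.757 and 0.900 to 24.3 and 21.7 and then 17.0 and 15.5 CPM, *Itga11* had 2.50, and their common partner *Itgb1* had -0.32.

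Of 8 collagen breakdown genes, 5 were higher and 1 lower at Day 7, 7 were higher at Day 10 than at Day 7, and 5 were higher at Day 10 than at Day 2 (median 1.16), where 35.7%, 26.3% and 39% of all genes were higher. Marker lists moved with them from Day 7 to Day 10, the 6 immune markers from a summed 25.5 and 36.0 CPM to 96.9 and 122 CPM and the 6 hypertrophic chondrocyte markers from 160 and 150 CPM to 948 and 1143 CPM, the latter with *Mmp13* among them, and their part in these changes was not tested. The hypertrophic list shares *Ibsp* and *Alpl* with the bone matrix list, so its sum is not particular to hypertrophic cells. *Mmp13*, a collagenase that cleaves collagen II, was at 0.0043 and 0.0098 CPM at Day 2, at 2.11 and 2.46 CPM at Day 7 and at 18.3 and 18.2 CPM at Day 10. *Ctsk* had 3.19 and *Mmp2* 1.24. Of 13 other collagen genes, 12 were higher and 1 lower at Day 7, and 11 were higher and 1 lower at Day 10 than at Day 7 (median 0.50), where the 7 cartilage genes were all lower. The 5 perichondrium markers moved with them, from a summed 2560 and 2370 CPM at Day 7 to 4488 and 3970 CPM at Day 10, as did the 7 bone matrix markers, from 1902 and 1766 CPM to 4231 and 4016 CPM. Both marker lists hold *Col1a1*, which is also among the 13 genes, and their part in these changes was not tested. *Col1a2*, of collagen I, was at 303 and 302, then 2173 and 2062, then 4211 and 3863 CPM. *Col10a1*, the hypertrophic cartilage collagen, was at 4.39 and 3.98, then 33.6 and 30.1, then 138 and 96.5 CPM, *Col6a3* had 3.18 at Day 10 against Day 2 and *Col24a1* had -1.46.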

How the data were processed

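Each library was made with a 10x Genomics 3' kit (v3.1). Per the labels and the study's methods, the authors aligned reads to GRCm38 (mm10) with Cell Ranger 6.1.2, which uses STAR, and deposited a matrix of UMI counts per gene and cell for each library. Those deposited counts, not normalized, were the start here. Cells were kept with the per-library limits of the study (at least 800 or 1000 UMIs, 200 to 7500 genes, at most 25, 30 or 40% mitochondrial and 35 or 40% ribosomal UMIs), which left 9448 to 16486 cells and 178022112 to 260245417 UMIs per library. No doublet caller was run.

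Counts were summed per library and tested with the quasi-likelihood test of edgeR 4.0.16 over all 6 libraries (filterByExpr, TMM, Benjamini-Hochberg, threshold 0.05), with 18987 genes tested. On simulated data the same test recovered 85% of 2-fold and 96% of 4-fold changes between Day 10 and Day 2 among 18564 genes. Ratios used the UMIs of the reference chain as library size. Clusters were rebuilt per day with Seurat 5.3.0 (SCTransform, anchor integration of the replicates, 3000 features, 35 dimensions, resolution 0.5 at Day 2 and Day 7 and 0.7 at Day 10) without 19 features, the 7 members and 12 chondrocyte markers. A cluster was named with at least 3 markers of a list enriched (mean log2 fold over 1, higher in both libraries, a UMI in at least 25% of cells), by the list of highest mean fold. It stayed unnamed where another list had more markers among its top 10 genes, or where its median UMI count was over 3 times below a library's and that list had none there. This rule was set after the files were known. A cluster needed at least 10 cells in each library to be described.

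Named genes were the 7 members and, from each of 9 partner lists, the 3 (2 in lists under 8 genes) called genes with the largest log2 fold change between Day 10 and Day 2, non-overlapping replicates and a mean of at least 10 CPM at Day 10 or Day 2. Genes called against the majority of their list could be named too, as could the 5 genes most like each member. Where a list was evenly split, its lower genes could be named. The members and lists were chosen with earlier results of these data known. Alternatives were DESeq2 1.42.0, its size factors, no TMM, no low-count filter, other cell filters, thinning depths, cluster resolution, each library left out and a replicate block. The spread of each ratio on its own and the Day 7 levels without Cluster 12 were added after seeing the data. Protein sequences were not used here.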

Additional observations from a re-analysis of the deposited data

How the results depend on the processing

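All 7 genes kept their calls in the 3 comparisons between days under every alternative that gave a test. With cells thinned and summed, which gives no test, 19 of the 21 log2 fold changes moved by at least the SE of that fold change in the edgeR fit. From Day 2 to Day 7, the ratio of *Col11a1* to *Col2a1* was called with every barcode (-0.23, edgeR adjusted p = 0.037), and that of *Col9a3* was lost without either of 2 libraries. From Day 7 to Day 10, 1 ratio to *Col2a1* was called, but 3 were with the spread of each ratio on its own and 3 with every barcode, and 0 on leaving out any 1 library of those days. Of the ratios to *Col9a1* over that interval 0 were called, and 1 was with the spread of each ratio on its own. The log2 change of *Col27a1* against *Col2a1* was 0.06, ranged from -0.012 (without Day 10 replicate B) to 0.13 on leaving out each library, and so changed sign. The cause was not tested.

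Levels per cell depended on depth by construction. The median share of cells with a UMI over the 7 genes was 14.99% at Day 2, 49.98% at Day 7 and 31.0% at Day 10, became 32.5%, 68.0% and 45.8% at 3000 UMIs, and 51.9%, 79.8% and 73.4% without thinning. The median share of UMIs in the top 10% of cells, ranked without thinning by the gene's share of a cell's UMIs and not by its count, was 74.6%, 45.5% and 61.1%, then 55.9%, 38.2% and 55.6%, and 39.2%, 31.5% and 48.2%. With 2 times the cluster resolution, the median share held by chondrocyte-like clusters went from 29.99% to 28.6% at Day 2, from 71.6% to 79.5% at Day 7 and from 79.3% to 83.1% at Day 10.

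The sources used here do not say whether the replicate letters pair the samples across days. Deviations of same-letter libraries correlated at -0.027, -0.090 and -0.078 over 8031 genes, which shows no pairing but cannot exclude it. With the replicate block, 6674 genes were higher and 6461 lower at Day 7 against Day 2, 4891 and 4716 at Day 10 against Day 7, and 7334 and 7190 at Day 10 against Day 2, against 6772 and 6570, 5003 and 4910, and 7414 and 7256 without it, and no call of the 7 genes changed.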
